A study of Mus musculus with 6 samples.

Results

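Type I interferon-stimulated genes, the genes that cells switch on after type I interferon binds its receptor, were followed in tumor-infiltrating Tregs with and without Ku70. The set was given as 39 gene symbols, with the OAS, PYHIN, GBP and Ly6 genes left out, and its members were found by an exact match of the symbol. Of the 39 genes, 37 were among the 15319 genes listed, and Mx1 and Mx2 were not analysed here. All 37 had counts, and 34 had a count in every library. The RNA-Seq compared regulatory T cells (Tregs) sorted from lung-colonizing tumors of Lewis lung carcinoma (LLC), a mouse lung tumor cell line. Both groups were C57BL/6J mice with the Foxp3Yfp-Cre allele, which makes Cre recombinase under the control of Foxp3 and so in Foxp3+ cells. The WT group (Foxp3Yfp-Cre) carried no other engineered allele, and the cKO group (Xrcc6 flox/flox Foxp3Yfp-Cre) also carried floxed Xrcc6, the gene for the DNA repair protein Ku70. Mice of 8 to 10 weeks received LLC cells into the tail vein, tumors were taken 21 days later, and each group had 3 libraries. The labels did not say whether the 3 libraries of a group came from separate mice or from pooled mice, so the p-values measure the spread between these libraries, which may be technical.

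Type I interferon signals through a receptor made of Ifnar1 and Ifnar2, which engages the kinases Jak1 and Tyk2. These phosphorylate STAT proteins, Stat2 among them, which join Irf9 into a complex that binds the interferon-stimulated response element in promoters. The products of the genes it switches on sense viral nucleic acid, block translation, degrade RNA, hold virions at the membrane or feed back on the pathway, and T cells express many of them at a basal level without infection.

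To show what these genes share in sequence, the RefSeq promoters (build GRCm38.p6, 250 bases before to 50 after the start) were searched for the core of that element, GAAANNGAAA, or TTTCNNTTTC on the other strand, with overlapping matches counted. RefSeq promoters were found for 31 of the 37 members. Of these, 16 held a match (51.6%), against 1079 of 27025 genes in the promoter table (3.99%). At least 2 matches stood in 6 members (19.4%) and in 72 of all genes (0.266%). The match is a description of these letters and not a binding site that was measured. The 6 stretches of 100 bases below hold matches of the well-known antiviral members, with the matched bases in capitals, each read 5' to 3' on the strand of the gene. Isg15 is from chr4:156200839-156200938 on the minus strand, Ifit1 from chr19:34640759-34640858 on the plus strand, Ifit3 from chr19:34583349-34583448 on the plus strand, Ifit3b from chr19:34607745-34607844 on the plus strand, Rsad2 from chr12:26456513-26456612 on the minus strand and Bst2 from chr8:71537543-71537642 on the minus strand.
Isg15: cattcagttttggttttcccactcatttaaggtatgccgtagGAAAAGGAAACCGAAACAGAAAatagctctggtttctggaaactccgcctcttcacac
Ifit1: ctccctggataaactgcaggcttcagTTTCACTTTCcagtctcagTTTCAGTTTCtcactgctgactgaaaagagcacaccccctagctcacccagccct
Ifit3: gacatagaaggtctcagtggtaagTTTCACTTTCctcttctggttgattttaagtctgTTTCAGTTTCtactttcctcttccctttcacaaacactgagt
Ifit3b: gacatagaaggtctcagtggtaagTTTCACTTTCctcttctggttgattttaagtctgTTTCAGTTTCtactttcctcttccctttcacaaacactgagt
Rsad2: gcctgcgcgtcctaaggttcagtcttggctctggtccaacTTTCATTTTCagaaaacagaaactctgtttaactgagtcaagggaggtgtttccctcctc
Bst2: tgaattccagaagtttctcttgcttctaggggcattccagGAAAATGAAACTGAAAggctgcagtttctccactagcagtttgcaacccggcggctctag
Isg15 held 3 overlapping matches, and the stretches of the neighbors Ifit3 and Ifit3b were identical over 100 of 100 bases. The whole promoters of that pair, compared at a single shift of 32 bases without gaps, had the same base at 201 of 268 positions (75%). Inserted or deleted bases would lower that share.

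No match was in the promoters of Ifit2 and Slfn1, the members with the smallest p-values in the comparison described further on, and the 100 bases before their starts are shown for that reason. Ifit2 is from chr19:34550594-34550693 and Slfn1 from chr11:83116720-83116819, both on the plus strand. Another promoter entry of Ifit2 (chr19:34550838-34551137) also held no match and is not shown.
Ifit2: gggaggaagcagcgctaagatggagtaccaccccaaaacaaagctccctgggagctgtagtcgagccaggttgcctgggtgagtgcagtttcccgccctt
Slfn1: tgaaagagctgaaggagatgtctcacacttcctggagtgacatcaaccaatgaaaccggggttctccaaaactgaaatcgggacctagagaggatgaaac
The absence says only that these letters were not in the windows. The 16 members with a match had a median log2 fold change (cKO over WT) of 0.15, with 11 higher, and the 15 without had a median of 0.13, with 10 higher. Without WT replicate 2, one of the WT libraries, these medians were -0.01 and 0.11.

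**Figure D1:**
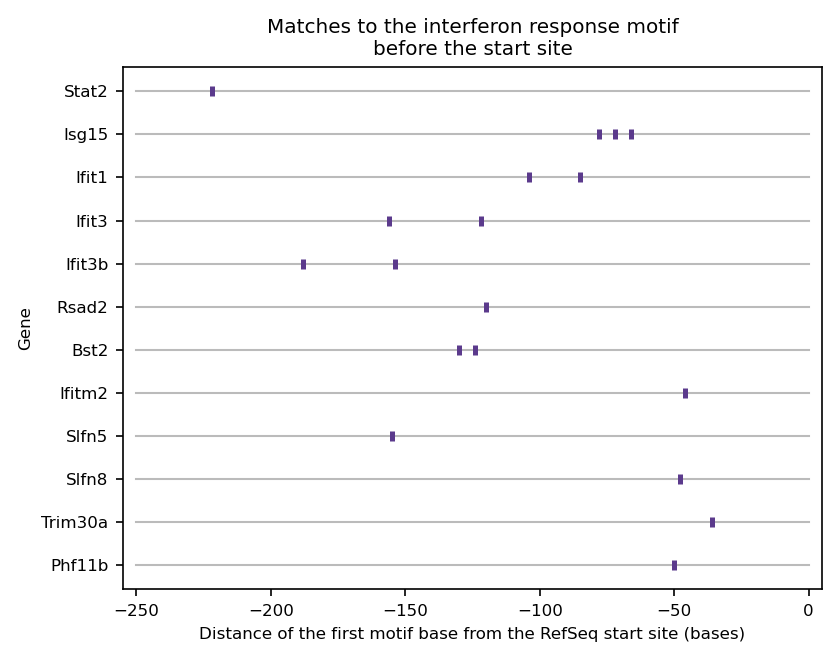
Distance of each motif match from the RefSeq start site, in bases (x axis), for the 12 members whose match lies before the start (y axis). Each tick is the first base of 1 match, and the 3 matches of Isg15 lie between -78 and -66.

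The total count per library was 19032620 to 21707706 in the WT group and 20762042 to 23159815 in the cKO group. WT replicate 2 stood apart, with counts for 11513 genes against 14442 to 14737 in the other 5 libraries. Levels are given as CPM, the count of a gene brought to a common library total, after TMM scaling for library size and composition. Xrcc6, the targeted gene, had 20.9, 63.1 and 23.8 CPM in the WT libraries and 5.24, 3.51 and 4.18 CPM in the cKO libraries, in the order of replicates 1, 2 and 3 used for all values given by library. All 6 Treg and T cell markers (Foxp3, Cd4, Cd3e, Il2ra, Ctla4 and Ikzf2) were detected in every library, and their summed level was 3596 to 4401 CPM in WT and 3682 to 3970 CPM in cKO. The 15 macrophage and dendritic cell markers, all listed, summed to 202, 713 and 747 CPM in WT replicates 1, 2 and 3 and to 246, 585 and 1115 CPM in cKO replicates 1, 2 and 3. Of these, Itgax, Flt3, Clec9a and Fcgr1 were at 0 in WT replicate 2, Clec9a also in WT replicate 3 and cKO replicate 1. Summed markers of neutrophils were at 31.4 to 49.5 CPM in WT and 44.9 to 48.7 CPM in cKO, of B and plasma cells at 16 to 70.4 and 14.2 to 60.2 CPM, of CD8 T and NK cells at 5.26 to 26.9 and 26 to 29.4 CPM, of lung epithelium, endothelium and stroma at 100 to 185 and 115 to 154 CPM, and of red blood cells at 0 to 9.75 and 10.9 to 36.1 CPM. Of 12 neutrophil markers, 9 were listed, with 7 higher and 2 lower in cKO in the edgeR comparison given further on. Their median log2 fold change was 0.33, and 1.13 without WT replicate 2. At an unadjusted p under 0.05, 3 of them were higher (0.94% of all genes) and 0 lower (0.868%). Every cKO library was above every WT library for 3 of them (5.01% of all genes). Other marker lists leaned to cKO as well. Higher were 10 of 15 macrophage and dendritic cell, 6 of 8 B and plasma cell and 6 of 6 CD8 T and NK cell markers. So were 11 of 13 lung and 5 of 5 red blood cell markers, against 3 of 6 Treg and T cell markers. Without WT replicate 2 these numbers were 12, 8, 4, 5, 4 and 3. Of all 15315 genes, 8343 were higher with 6 libraries. Because bulk RNA was measured, fewer cells of a type and less RNA per cell cannot be told apart.

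The interferon-stimulated genes showed no difference between cKO and WT Tregs that held after adjustment over all genes. Their level was similar in both groups when summed, and single genes leaned to the cKO side by small amounts. The summed level of the 37 members was 3056, 1964 and 2423 CPM in WT replicates 1, 2 and 3, and 2508, 3163 and 2708 CPM in cKO replicates 1, 2 and 3. The means were 2481 ± 548 CPM in WT and 2793 ± 336 CPM in cKO (SD, n = 3), and the groups overlapped. Ifi27l2a alone made up a large share, and without it the sums were 2176, 1697 and 1928 CPM in WT and 2019, 2312 and 2070 CPM in cKO. WT replicate 2 had the lowest sum either way.

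The comparison asked how loss of Ku70 in Tregs alters transcription within the tumor, and was made with edgeR's quasi-likelihood test over 15315 genes. Of the 37 members, 24 were higher and 13 lower in cKO, with a median log2 fold change of 0.13, against 8343 higher and 6972 lower and a median of 0.04 over all genes. At an unadjusted p under 0.05, 2 members were higher (Ifit2 and Slfn1), where 0.94% of all genes were, and 0 were lower, where 0.868% were. No member passed an adjusted p of 0.05 (Benjamini-Hochberg over all genes), and neither did any of the 15315 genes (0%). DESeq2 called 2 members higher at an unadjusted p under 0.05, where 0.62% of all genes were, and 0 lower, where 1.38% were. At an adjusted p under 0.05 it called 0 members and 2 genes of the whole table. Every cKO library was above every WT library for 5 members (Ddx58, Dtx3l, Ifit2, Slfn1 and Slfn5), while 5.01% of all genes had that order. The reverse order held for 0 members and for 3.23% of all genes. For a single gene, 3 libraries against 3 cannot give an exact permutation p under 0.1.

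Leaving out WT replicate 2 brought the lean to the cKO side down. Among 15302 genes tested, 23 members were then higher and 14 lower, with a median log2 fold change of 0.03 against -0.01 over all genes. Again Ifit2 and Slfn1 were higher at an unadjusted p under 0.05 (1.52% of all genes) and 0 members were lower (1.5%). No member passed the adjusted threshold, which 1 gene of the table, Xrcc6, did (0.00654%). Every cKO library was above both WT libraries for the same 5 members (8.48% of all genes) and below both for 1, Trim30a (7.53%).

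**Figure D2:**
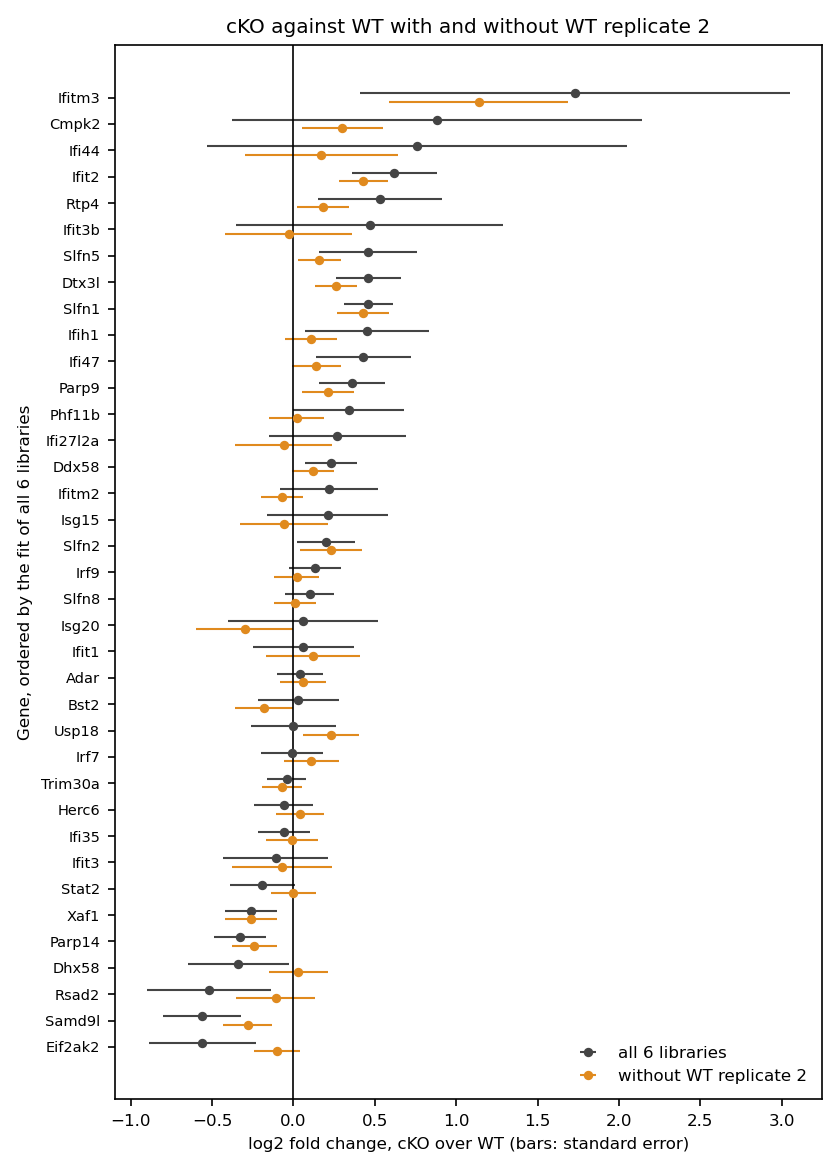
Log2 fold change of each member, cKO over WT (x axis), with its standard error, from the fit of all 6 libraries and from the fit without WT replicate 2, with genes in the order of the first (y axis). Ifitm3, Cmpk2 and Ifi44, at the top, had 0 counts in WT replicate 2, and most estimates lay nearer to 0 without that library.

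Per kilobase of exon, the scale on which levels of different genes can be compared, the members spanned a wide range. Ifi27l2a, a small interferon-induced protein, was at a mean of 1303 CPM per kilobase over the 6 libraries. Next were Slfn2 at 127, Phf11b at 108, Bst2 at 91.2 and Ifitm2 at 78.3 CPM per kilobase. The lowest were Cmpk2 at 2.78, Ifit3b at 2.09 and Ifi44 at 0.198 CPM per kilobase. Members of the same role were far apart in this order, with Ifitm3 at 17 CPM per kilobase below its relative Ifitm2, and Isg20 at 41.6 CPM per kilobase above the other antiviral effectors.

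**Figure D3:**
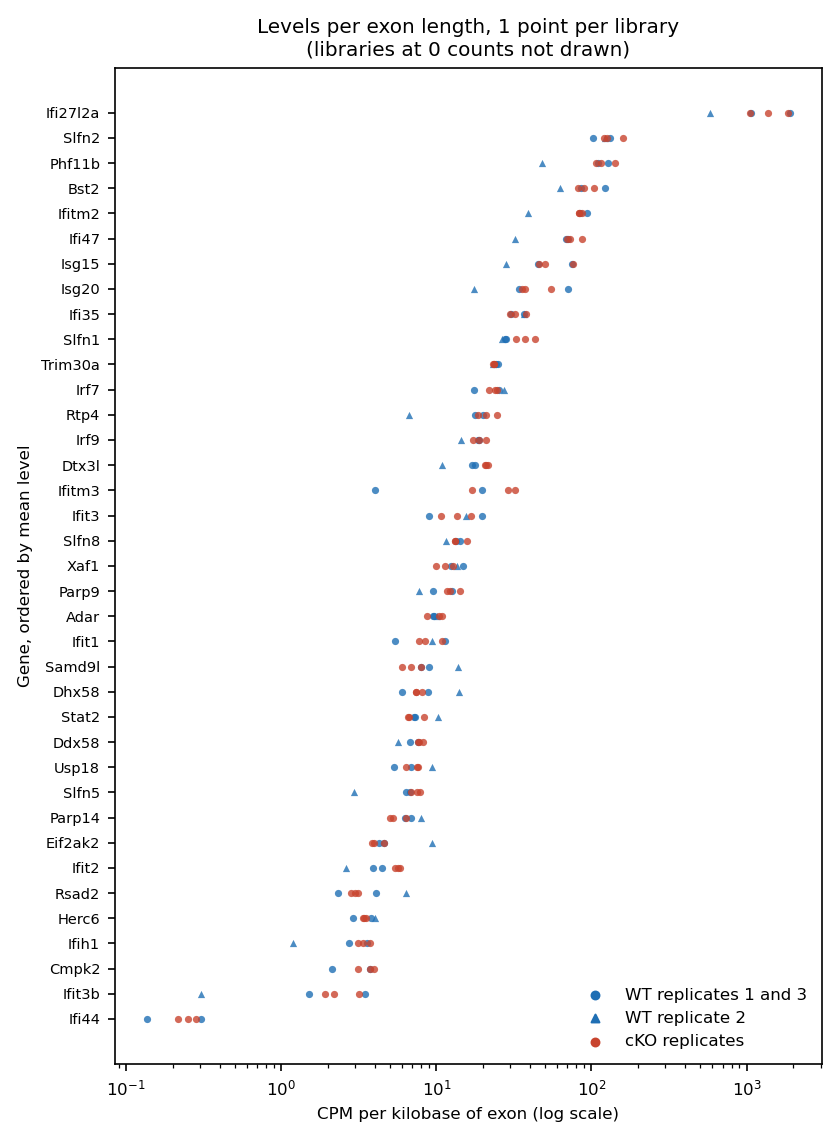
Level of each member in CPM per kilobase of exon (x axis, log scale), 1 point per library, with genes ordered by mean level (y axis). WT replicate 2, drawn as triangles, lies to the left of the other libraries for many genes, Rtp4, Phf11b and Ifi27l2a among them, and to the right for Eif2ak2, Dhx58 and Rsad2.

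The factors that carry the signal did not differ beyond their spread. Irf9, the DNA-binding subunit of the complex, was at 102, 77.6 and 99.8 CPM in WT and 92.8, 112 and 102 CPM in cKO, which overlapped (log2 fold change 0.13 ± 0.16 SE, exact permutation p = 0.5). Irf7, which amplifies interferon production, was at 96.3, 103 and 66.4 CPM in WT and 82.0, 89.8 and 92.4 CPM in cKO. Its cKO libraries lay within the WT range (log2 fold change -0.01 ± 0.19 SE, exact permutation p = 1). Stat2 ranged from 42.2 to 60.7 CPM in WT and from 39.1 to 49.6 CPM in cKO, with WT replicate 2 the highest of all 6.

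Among the sensors of nucleic acid and the RNA-binding enzymes, 3 of 5 were higher in cKO and none passed an unadjusted p of 0.05. Ddx58, the RNA sensor RIG-I, was at 53.4, 39.7 and 47.8 CPM in WT and 53.8, 54.1 and 57.7 CPM in cKO. The groups did not overlap, although WT replicate 1 and cKO replicate 1 were next to each other (log2 fold change 0.23 ± 0.16 SE, exact permutation p = 0.1, edgeR p = 0.183). Ifih1, the RNA sensor MDA5, was at 9.68 CPM in WT replicate 2 and at 22.4 to 30.3 CPM in the other 5 libraries. Dhx58, which encodes LGP2, and Eif2ak2, the kinase PKR that halts translation, had the opposite order. Dhx58 was at 45.9 CPM in WT replicate 2 and at 19.5 to 29.1 CPM elsewhere. Eif2ak2 was at 47.9 CPM in WT replicate 2 and at 19.6 to 23.6 CPM elsewhere, and its log2 fold change of -0.56 became -0.10 without that library. Adar, which edits adenosine to inosine in RNA, was nearly level, from 71.0 to 88.6 CPM over all 6 libraries. Ifih1, Dhx58, Eif2ak2 and the other members given by library outside the 8 most abundant, the 2 with a small p and those whose groups did not overlap were chosen after their values were seen.

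The ISG15 system and the ADP-ribosylation genes were split, with 3 of 6 higher in cKO. Isg15, a ubiquitin-like modifier, was at 56.7, 21.4 and 34.1 CPM in WT and 34.9, 57.3 and 38 CPM in cKO, so 1 library of each group was high. Its log2 fold change was 0.21 ± 0.37 SE (exact permutation p = 0.5) and -0.06 without WT replicate 2. Usp18, which removes Isg15 from proteins and restrains the receptor, ranged from 14.9 to 26.1 CPM in WT and from 17.9 to 21.1 CPM in cKO. Herc6, a ligase for Isg15, ranged from 26.8 to 37.6 CPM in WT and from 31.3 to 32.7 CPM in cKO.

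Dtx3l, a ubiquitin ligase that pairs with Parp9, was at 102, 61.8 and 97.0 CPM in WT and 117, 119 and 123 CPM in cKO. Its cKO libraries all lay above the WT libraries, by a log2 fold change of 0.46 ± 0.20 SE (exact permutation p = 0.1, edgeR p = 0.0557, adjusted p = 0.984) and of 0.26 (p = 0.0679, and 0.0415 with DESeq2) without WT replicate 2. Parp9 was at 61, 37.4 and 46.0 CPM in WT and 57.1, 68.7 and 60.0 CPM in cKO, where the groups overlapped. Dtx3l (chr16:35926511-35939151, minus strand) and Parp9 (chr16:35938470-35972605, plus strand) overlap at their starts in the GENCODE annotation of GRCm38. Whether the counting used strand is not given in the sources used here, so reads in the shared stretch cannot be told apart. Parp14, a mono-ADP-ribosyltransferase, leaned the other way, with 58.3, 73.9 and 63.4 CPM in WT and 59.2, 49.1 and 47.0 CPM in cKO (log2 fold change -0.33 ± 0.16 SE, exact permutation p = 0.2, edgeR p = 0.0754).

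Of the 8 listed genes of the IFIT family and other antiviral effectors, 5 were higher in cKO, with a median log2 fold change of 0.06. Ifit2, whose protein binds viral RNA, was at 17.5, 10.2 and 15.3 CPM in WT and 22.2, 22.9 and 21.3 CPM in cKO. The cKO libraries were close together and all above WT, at means of 22.1 ± 0.807 and 14.4 ± 3.74 CPM (SD, n = 3). The log2 fold change was 0.62 ± 0.26 SE (exact permutation p = 0.1, edgeR p = 0.0475, adjusted p = 0.984), and 0.43 ± 0.15 SE (p = 0.0174, adjusted p = 0.997) without WT replicate 2. Its relatives did not share this order. Ifit1 was at 30.0, 25.0 and 14.3 CPM in WT and 20.6, 29.0 and 22.5 CPM in cKO. Ifit3 was at 34.3, 27.2 and 15.6 CPM in WT and 18.8, 29.1 and 23.6 CPM in cKO. In both, the WT group held the highest and the lowest library. Ifit3b was at 0.611 CPM in WT replicate 2 and at 3.02 to 6.88 CPM elsewhere. Ifit3 and Ifit3b shared 18.5% and 16% of their 150-base transcript windows with each other, so the division of reads between that pair is uncertain.

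Rsad2, which encodes viperin, and its neighbor Cmpk2 (chr12:26442746-26456452 and chr12:26469204-26479837), a nucleotide kinase, went opposite ways in WT replicate 2. Rsad2 was at 17.6, 27.7 and 10.1 CPM in WT and 13.6, 12.2 and 12.9 CPM in cKO. Cmpk2 was at 15.6, 0 and 8.81 CPM in WT and 13, 16.4 and 15.6 CPM in cKO. A count of 0 in that library allows up to 0.141 CPM (3 counts, counting error only). The cKO mean of Cmpk2 was at least 106-fold above that floor, and the mean of WT replicates 1 and 3 at least 86.5-fold. The gap thus set WT replicate 2 apart from both groups, and without it the log2 fold change of Cmpk2 was 0.30 ± 0.25 SE. Outside WT replicate 2, 1649 genes averaged 10 to 20 CPM, and 59 of them (3.58%) were at 0 in it. So were 2 of the 5 members in that range, which was picked because it holds Cmpk2. From 1 to 5 CPM, 1 of 2 members was at 0, as were 37.9% of genes. From 20 to 50 CPM, 0 of 11 members were (0.363% of genes), and above that 0 of 19 (0.0266%). Over the whole set 3 of the 37 members (8.11%) were at 0 in WT replicate 2, against 24.8% of the 15315 genes tested. Isg20, an exoribonuclease, was at 131, 32.7 and 63.3 CPM in WT and 65.9, 102 and 69.2 CPM in cKO, with both extremes in the WT group. Samd9l, which restrains translation and cell growth, was at 43.1, 74.9 and 48.9 CPM in WT and 43.5, 37.3 and 32.8 CPM in cKO. Its log2 fold change was -0.56 ± 0.24 SE (exact permutation p = 0.2, edgeR p = 0.0517), and -0.28 (p = 0.0950) without WT replicate 2.

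**Figure D4:**
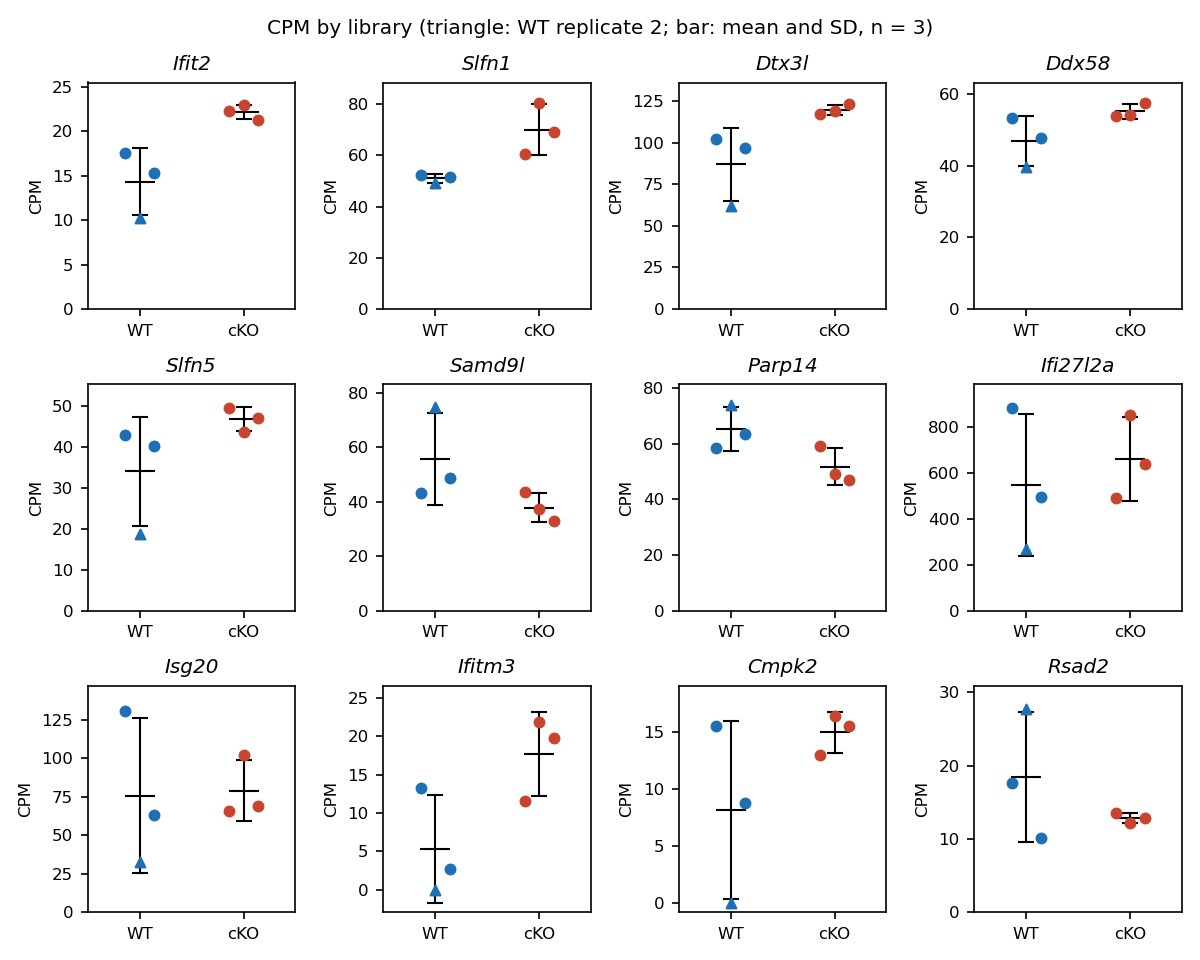
CPM of 12 members in each library (y axis, CPM), WT and cKO on the x axis, with the mean and SD of 3 libraries and WT replicate 2 as a triangle. All cKO points lie above all WT points for Ifit2, Slfn1, Dtx3l, Ddx58 and Slfn5, and WT replicate 2 is the highest WT point for Samd9l, Parp14 and Rsad2.

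All 3 restriction factors of the membrane had a log2 fold change above 0 with 6 libraries (median 0.22), and 1 of 3 without WT replicate 2 (median -0.07). Bst2, or tetherin, which holds budding virions at the cell surface, was at 111, 56.3 and 77.8 CPM in WT and 74.1, 94.4 and 80.5 CPM in cKO. Ifitm2, which blocks viral fusion, was at 25.6 CPM in WT replicate 2 and at 54.1 to 61.2 CPM in the other libraries, so the cKO libraries overlapped with the other WT libraries. Ifitm2 shared 23.5% of its 150-base transcript windows with other genes, mainly Gm45717, so the division of its reads is uncertain. Ifitm3, its close relative, was at 13.3, 0 and 2.71 CPM in WT and 11.5, 21.8 and 19.7 CPM in cKO. The groups overlapped at WT replicate 1, and the log2 fold change was 1.73 ± 1.32 SE (exact permutation p = 0.2, edgeR p = 0.229) and 1.14 ± 0.55 SE (p = 0.0676) without WT replicate 2. The macrophage and dendritic cell markers were lowest in WT replicate 1 and cKO replicate 1, the libraries with the highest WT and the lowest cKO level of Ifitm3, and their part in its values was not tested.

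The Schlafen family was the role group whose members were all higher in cKO with and without WT replicate 2 (4 of 4, median log2 fold change 0.33 and 0.19). Slfn1, linked to growth arrest of T cells, was at 52.4, 49.2 and 51.4 CPM in WT and 60.6, 80.3 and 69.0 CPM in cKO. The WT libraries were within a narrow range and all below cKO, at means of 51.0 ± 1.63 and 70 ± 9.85 CPM (SD, n = 3). The log2 fold change was 0.46 ± 0.15 SE (exact permutation p = 0.1, edgeR p = 0.0178, adjusted p = 0.984), and 0.43 ± 0.16 SE (p = 0.0219) without WT replicate 2, a library in which Slfn1 was not unusual. Slfn2, which maintains T cell quiescence, was at 169, 203 and 218 CPM in WT and 199, 267 and 211 CPM in cKO, which overlapped (log2 fold change 0.20 ± 0.18 SE, exact permutation p = 0.5). Slfn5 was at 42.9, 18.7 and 40.3 CPM in WT and 49.4, 43.6 and 47.1 CPM in cKO. Its cKO libraries were all higher, though cKO replicate 2 was near WT replicate 1, and its log2 fold change of 0.46 (exact permutation p = 0.1, edgeR p = 0.173) became 0.16 (p = 0.232) without WT replicate 2. Slfn8 ranged from 47.3 to 58.5 CPM in WT and from 53.7 to 64.6 CPM in cKO. All 4 kept their direction under every other scaling. Slfn9, a Schlafen gene outside the set, had the opposite order, at 19.8, 20.9 and 33.8 CPM in WT and 19.6, 14.6 and 14.9 CPM in cKO, with a log2 fold change of -0.60 ± 0.28 SE.

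Of the other interferon-induced members, 5 of 8 were higher in cKO, with a median log2 fold change of 0.30, and 4 of 8 without WT replicate 2, with a median of 0.00. Ifi27l2a was at 880, 267 and 494 CPM in WT and 489, 852 and 638 CPM in cKO. The spread within each group covered most of the range, and the log2 fold change was 0.27 ± 0.42 SE (exact permutation p = 0.8). Ifi47, an immunity-related GTPase, was at 169, 79.5 and 174 CPM in WT and 181, 215 and 172 CPM in cKO. Phf11b, a PHD finger protein, was at 151, 57.1 and 131 CPM in WT and 126, 167 and 136 CPM in cKO. For both, WT replicate 2 was the one library far from the rest, and without it the log2 fold changes of 0.43 and 0.34 became 0.14 and 0.02. Rtp4 had the same order, at 14.1 CPM in WT replicate 2 and 37.8 to 52.7 CPM elsewhere. Ifi44 was listed at 0 in WT replicate 2 and at 0.834 to 1.86 CPM elsewhere.

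Trim30a, a TRIM protein that restrains inflammatory signaling, was the steadiest member, at 102, 95.6 and 100 CPM in WT and 97.3, 96.4 and 95.2 CPM in cKO. Its groups separated only without WT replicate 2, with cKO below by a log2 fold change of -0.07. Xaf1, which binds an inhibitor of apoptosis, ranged from 58.5 to 69.5 CPM in WT and from 46.5 to 60.4 CPM in cKO (log2 fold change -0.26 ± 0.16 SE, exact permutation p = 0.2, and the same -0.26 without WT replicate 2). Ifi35 ranged from 52.3 to 63.5 CPM in WT and from 51.5 to 65.6 CPM in cKO.

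The WT libraries differed among themselves more than the cKO libraries did. WT replicate 2 was the lowest of the 6 libraries for 21 of the 37 members (56.8%), against 48.4% of the 15315 genes tested and 39.6% of the 8447 genes with a mean of at least 10 CPM, a level that 2 members, Ifi44 and Ifit3b, did not reach. It was the highest for 9 members (24.3%), against 29% and 37.6% of those genes. On the log2(CPM + 0.5) scale, 13 members (35.1%) were more than 2-fold below the mean of WT replicates 1 and 3 in that library, against 13.7% of the 8447 genes, and 2 members (5.41%, against 6.35%) were more than 2-fold above it. WT replicates 1 and 3 also differed, since 30 members (81.1%) were higher in replicate 1, where 54.7% of the 8447 genes were. The median SD over libraries was 0.49 in WT and 0.17 in cKO for the members, and 0.34 and 0.14 for the 8447 genes. The wider spread in WT was thus found in these genes and in the table at large.

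**Figure D5:**
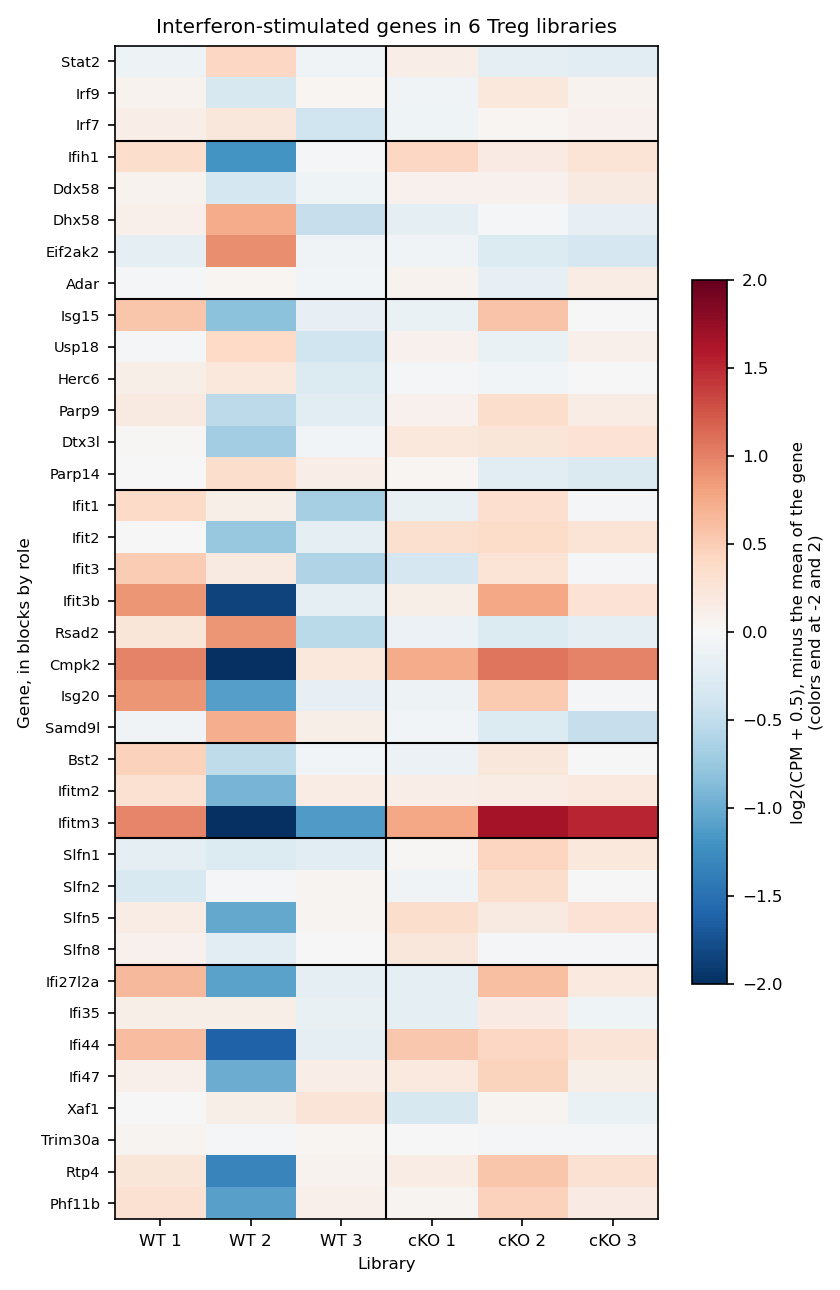
Each member (y axis, in blocks by role) in each library (x axis), as log2(CPM + 0.5) minus the mean of that gene over 6 libraries, with red above and blue below the mean and colors ending at -2 and 2. The WT replicate 2 column holds the darkest blue cells (Cmpk2, Ifitm3, Ifit3b and Ifi44) but is red for Eif2ak2, Dhx58, Samd9l and Rsad2.

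Upstream of these genes, 44 of 61 pathway genes were listed. Of these, 19 were higher and 25 lower in cKO, with a median log2 fold change of -0.06. At an unadjusted p under 0.05, 1 was higher (0.94% of all genes) and 1 lower (0.868%). Without WT replicate 2 the balance turned, with 23 higher, 21 lower and a median of 0.01. The chains of the type I receptor overlapped between the groups, with Ifnar1 at 171, 215 and 148 CPM in WT and 172, 148 and 161 CPM in cKO, and Ifnar2 at 91.6, 128 and 106 CPM in WT and 89.6, 105 and 104 CPM in cKO. Jak1 and Tyk2, the kinases of the receptor, had log2 fold changes of 0.20 ± 0.17 and -0.44 ± 0.24 (SE). Without WT replicate 2 these were 0.15 and -0.13. The other receptors and signal carriers ranged from a log2 fold change of -0.41 for Ifnlr1, detected at 0 to 0.156 CPM, to 0.25 for Irf5, apart from Jak2 at -0.56 ± 0.27 (SE), for which every cKO library was lower. Irf1, Irf2, Irf3 and Irf8 had log2 fold changes of 0.07, 0.15, -0.26 and 0.01. For Irf2 every cKO library was above every WT library, the order of 5.01% of all genes.

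Only 4 of the 21 interferon genes of the list were analysed here. Ifnb1, which encodes interferon beta, was at 0.287, 9.49 and 1.88 CPM in WT and 0.696, 2.74 and 1.56 CPM in cKO, so the library with the most Ifnb1 was the one with the lowest summed level of members. Ifng, the type II interferon, was at 128, 94.7 and 79.6 CPM in WT and 86.8, 78.1 and 52.1 CPM in cKO (log2 fold change -0.48 ± 0.25 SE, exact permutation p = 0.2, edgeR p = 0.0925). The 2 pathway genes with an unadjusted p under 0.05 acted at other steps. Irf2bp1, a corepressor that binds Irf2, was at 33.8, 24.9 and 34.0 CPM in WT and 44.4, 40.4 and 40.4 CPM in cKO (log2 fold change 0.43, exact permutation p = 0.1, edgeR p = 0.0468). Traf3, an adaptor between RNA sensors and the kinases that induce interferon, was at 148, 221 and 138 CPM in WT and 136, 103 and 97.8 CPM in cKO (log2 fold change -0.59, exact permutation p = 0.1, edgeR p = 0.0343). Without WT replicate 2 these p-values were 0.0426 and 0.0604, and the adjusted p with 6 libraries was 0.984 for both. Without that library Trim25, a ligase that activates RIG-I, was higher (log2 fold change 0.34) and Ptpn11, the phosphatase SHP-2, lower (-0.30) at an unadjusted p under 0.05.

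The lean to the cKO side was also present in 49 other interferon-stimulated genes, of which 33 were higher and 16 lower with a median log2 fold change of 0.09, and it was absent without WT replicate 2, with 20 higher, 29 lower and a median of -0.04. At an unadjusted p under 0.05, 0 were higher (0.94% of all genes) and 2 lower (0.868%). Cxcl10, a chemokine that draws Cxcr3+ T cells, was at 121, 163 and 110 CPM in WT and 96.7, 105 and 75.1 CPM in cKO, with all cKO libraries below WT (log2 fold change -0.51, exact permutation p = 0.1, edgeR p = 0.0382, and 0.0791 without WT replicate 2). Nlrc5, the activator of MHC class I genes, was at 179, 296 and 220 CPM in WT and 191, 138 and 142 CPM in cKO, which overlapped (log2 fold change -0.56, exact permutation p = 0.2, edgeR p = 0.0421, and 0.0841 without WT replicate 2). Both had the direction opposite to Ifit2 and Slfn1. Without WT replicate 2, Ifit1bl1, a relative of Ifit1, was higher (log2 fold change 0.52), and Slfn9 and Ifitm1, a relative of Ifitm3 at 0 to 5.11 CPM, were lower (-0.71 and -1.71) at an unadjusted p under 0.05.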

How the data were processed

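RNA was extracted with TRIzol from sorted Tregs, and libraries made with a SMARTER mRNA-seq kit were read as 150 bp pairs on a BGI-Seq500. Per the submitters' processing notes, Bowtie2 (version 2.3.4.3), RSEM (version 1.3.1) and the GRCm38 genome were used; the annotation and strand setting are not given in the sources used here. The authors deposited RSEM expected counts per gene symbol, without normalization. Because 21.6% of values were not whole, they were rounded before testing. Chi-square comparisons of counts found every replicate pair further apart than sampling noise.

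The 39 members and the role, pathway and marker lists were chosen with earlier results of these data known. Genes with at least 1 count (15315 of 15319) were scaled by TMM and compared with edgeR's quasi-likelihood test (version 4.0.16, R version 4.3.3) over 3 WT and 3 cKO libraries, with p-values adjusted by Benjamini-Hochberg over all genes. Each standard error was the log2 fold change divided by the square root of its F statistic. Fits were also run on simulated data, with changes larger than that of any member with 6 libraries. That run cannot show how often changes of the members' size would be found. Counting intervals and floors cover counting error only. By plan, members were named with library values if among the 8 with the highest mean CPM, if an unadjusted p was under 0.05 with or without WT replicate 2, or if groups did not overlap. The other members given by library were chosen after their values were seen. Pathway genes and other interferon-stimulated genes were named if an unadjusted p was under 0.05, and receptors, STATs and IRFs were named in any case, except for 1 gene that is not reported here. Alternatives were median-of-ratios scaling, library size only, filterByExpr (minimum count 10), DESeq2 (version 1.42.0), a replicate block and each library left out. Gene positions and exon lengths were from GENCODE vM21 (GRCm38), which held all 37 members, and promoters from RefSeq (GRCm38.p6). The strand of the promoter entries was checked on transcripts, where 32 of 39 entries were found and 0 in reverse.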

Additional observations from a re-analysis of the deposited data

How the results depend on the processing

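Of the 37 members, 22 kept their direction under every alternative run and 15 did not. No member passed an adjusted p of 0.05 in any of them. The number of members higher at an unadjusted p under 0.05 was 2 with all libraries (0.94% of all genes). It was 1 with library size only (0.79%) and 0 with the replicate block (0.255%). Leaving each library out in turn gave 0 to 5 (0.294% to 1.88%). It was 5 without WT replicate 1 (Parp9, Dtx3l, Ifit2, Ifitm3 and Slfn1), where 1.78% of all genes were higher. Without WT replicate 3 (1.88%) or cKO replicate 1 (0.627%) it was 1. Without cKO replicate 2 (0.333%) or 3 (0.294%) it was 0. DESeq2 without WT replicate 2 gave 3 (Dtx3l, Ifit2 and Slfn1), where 1.29% of all genes were higher. The number of lower members was 0 with all libraries (0.868% of all genes) and 0 to 2 in the other runs. It was 2 without WT replicate 1 (Parp14 and Samd9l), where 3.93% of all genes were lower. Without WT replicate 3 it was 1 (Rsad2), where 1.88% were. Members with every cKO library above every WT library numbered 5 with all libraries (5.01% of all genes). They numbered 4 with library size only, where the share of all genes was not computed. With libraries left out in turn they numbered 5 to 14 (7.07% to 15.3% of all genes). The 14 came without WT replicate 1, when 15.3% of all genes had that order. The reverse order held for 0 members with all libraries (3.23% of all genes). With libraries left out in turn it held for 0 to 4 (4.29% to 11.6%). It was 4 without WT replicate 1 (11.6%), WT replicate 3 (8.27%) or cKO replicate 1 (8.42%). The median log2 fold change was lowest at 0.03, when WT replicate 2 was left out, and highest at 0.31, when WT replicate 1 was. Over all genes, 0 passed the adjusted threshold, against 2 with DESeq2, 1 without WT replicate 2 and 3 with DESeq2 without that library. Causes of these shifts were not tested.

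Directions turned as follows. Irf7 was at 0.01 with the replicate block, Usp18 at 0.01 with median-of-ratios scaling and with DESeq2 and at 0.03 with the block, and Adar, Ifit1 and Bst2 at -0.02, -0.01 and -0.02 with library size only. With libraries left out in turn, the DESeq2 fit without WT replicate 2 included, log2 fold changes ranged from -0.31 to 0.00 for Stat2, -0.17 to 0.11 for Irf7, -0.59 to 0.03 for Dhx58, -0.03 to 0.13 for Adar, -0.07 to 0.65 for Isg15, -0.17 to 0.23 for Usp18, -0.18 to 0.04 for Herc6, -0.19 to 0.29 for Ifit1, -0.36 to 0.16 for Ifit3, -0.03 to 1.42 for Ifit3b, -0.30 to 0.72 for Isg20, -0.18 to 0.31 for Bst2, -0.08 to 0.46 for Ifitm2, -0.06 to 0.79 for Ifi27l2a and -0.16 to 0.02 for Ifi35. Same-numbered WT and cKO libraries correlated in their deviations at 0.133, -0.0167 and 0.221 for replicates 1, 2 and 3. Differently numbered libraries correlated at -0.209 to 0.0585. These few values do not settle whether the replicate numbers pair the libraries. With the block the smallest edgeR p of a member was 0.0503. Depth limited Ifi44 most, at a mean of 1.21 CPM.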
